A study of Mus musculus with 8 samples.

Results

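The Rab GTPases were taken as every gene symbol made of Rab, a number and at most 1 letter and 1 further digit, which gave 57 members among the 21080 symbols of the tables. RNA-seq was done on BMDMs, that is macrophages cultured out of the bone marrow, of C57BL/6 mice. WT mice were sex-matched littermates that carried LysM Cre, and Nudt21-cKO mice were Nudt21 fl/fl LysM Cre, in which Cre made from the lysozyme M locus deletes exons 2 and 3 of Nudt21 in myeloid cells. BMDMs of each genotype were either left without stimulation (0 h) or primed overnight with IFNγ and then given LPS for 4 h (IFNγ/LPS), and each of the 4 groups had 2 samples, each pooled from 2 mice. The labels name the stimulation for all 8 samples, and the 0 h samples were taken as unstimulated from their titles. No age is used here. The deposited values do not name their unit and were read, from their size and the program that made them, as the mean depth of reads over the bases of a gene, called coverage here. Levels set side by side between genes rest on that reading. Coverage was not scaled between samples, and the 2 times stand in separate tables. Its sum over all genes was 14950000 to 17950000 per sample, and the Rab genes held 0.374% to 0.432% of it. The study's methods state deep paired-end sequencing, but the tables used here hold no reads per gene, so no counting interval is given.

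The labels were checked first with the targeted gene. Nudt21 coverage was 718 and 641 in WT against 158 and 172 in cKO at 0 h, and 547 and 575 in WT against 142 and 115 in cKO at 4 h. The 7 macrophage markers summed to 117100 to 128700 at 0 h and 47790 to 60600 at 4 h, but at 0 h the genotypes did not overlap in any of the 7, which lay lower or higher in cKO, as 56.3% of all genes tested did not overlap either. Adgre1 had 20130 and 24460 in WT against 13820 and 14290 in cKO, and Csf1r (38700 and 44260 against 26250 and 30290), Mrc1 (1770 and 2104 against 1114 and 977), Fcgr1 (2541 and 2397 against 1318 and 1338) and Itgam (7860 and 8766 against 7023 and 7040) lay lower in cKO as well. Cd68 (45500 and 42910 in WT against 69410 and 73400 in cKO) and Lyz2 (594 and 905 against 1158 and 1375) lay higher. At 4 h the genotypes did not overlap in 5 of the 7, against 61.2% of all genes, with Cd68 (12360 and 13100 in WT against 24830 and 28820 in cKO) and Lyz2 (455 and 597 against 803 and 1051) higher and Adgre1 (12400 and 13300 against 9642 and 8983), Mrc1 (106 and 205 against 54.8 and 38.65) and Fcgr1 (5494 and 6992 against 5321 and 4806) lower. The 3 dendritic cell markers summed to 12.1 to 14.9 in WT against 21.1 to 32.4 in cKO at 4 h, most of it Zbtb46 in cKO (16.6 and 23.9, against 6.59 and 7.08 in WT). The part of these shifts in the results was not tested. The 4 genes chosen as signs of stimulation (Nos2, Il6, Cxcl10, Il12b) summed to 9.60 to 38.0 at 0 h and 233200 to 264400 at 4 h. At 4 h Nos2 had 19480 and 20680 in WT against 44730 and 43710 in cKO, and Il6 11460 and 8601 against 12090 and 12010. Cxcl10 and Il12b overlapped between the genotypes at 4 h. The part of the Nos2 and Il6 differences in the results was not tested. Of the 5 neutrophil markers, S100a8, S100a9, Ngp and Camp were present and Ly6g did not exceed 7.37. Their sum was 21930 to 23670 in WT against 25370 to 33940 in cKO at 0 h, and 17330 to 21340 in WT against 21680 to 24700 in cKO at 4 h, so it was higher in cKO at each time, and its part in the results was not tested. B cell and NK cell markers summed to at most 8.51 in any sample, and of the T cell markers Cd4 alone passed a mean of 1. In bulk RNA, fewer cells of a type and less RNA per cell cannot be told apart.

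Rab GTPases are small membrane switches. Bound to GTP they recruit effectors that move, tether and fuse vesicles, and each compartment of the cell carries its own set. Exchange factors load them with GTP, GTPase-activating proteins switch them off, and GDP dissociation inhibitors return them to the cytosol. In macrophages they guide phagosomes through early and late endosomal stages to the lysosome, recycle receptors, deliver cytokines and Toll-like receptors to the surface, and take part in the formation and maturation of autophagosomes. Nudt21 encodes a subunit of cleavage factor Im, which binds UGUA in the RNA ahead of polyadenylation sites and so takes part in choosing where the 3'UTR ends.

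Because of that binding motif, the UGUA nearest the annotated 3' end is shown for Rab8b and for 4 of the 5 members called between the genotypes at 4 h. That of Rab18, the other one, is not printed here. Each is a 30-base window of GRCm38 read 5′ to 3′ on the transcript strand, as DNA, with TGTA in capitals. The Rab8b window is chr9:66843755-66843784 (minus strand, 104 bases from the end of the 3'UTR), Rab2a is chr4:8607687-8607716 (plus strand, 75 bases), Rab2b is chr14:52261919-52261948 (minus strand, 173 bases), Rab11a is chr9:64715358-64715387 (minus strand, 72 bases) and Rab13 is chr3:90226283-90226312 (plus strand, 86 bases).
Rab8b: ccagttcattaacTGTActgatactgatgt
Rab2a: aaataaactcctaTGTAcaaaagtgtcctt
Rab2b: gttccgtagactcTGTAactgtcagcccag
Rab11a: tttatgcatgctcTGTAtttggactttttt
Rab13: tctttgattctgaTGTAgtcagcttaggtg

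In these windows Rab13 shows the single TGTA of its 3'UTR of 802 bases. The 3'UTR of Rab18 holds 45 in 5774 bases, that of Rab11a holds 17 in 1550 bases, that of Rab8b 16 in 4055, that of Rab2b 12 in 1951 and that of Rab2a 11 in 1275. Among the members tested, 52 of 54 (96.3%) had at least 1 TGTA in the longest annotated 3'UTR, with a median of 10 and a median length of 1532 bases, against 88.3%, 5 and 1098 bases over the 13505 genes tested with an annotated 3'UTR. Per kilobase the medians were 5.41 and 5.05. Over the 45 members with a mean coverage of at least 10, Spearman's rho between the TGTA count and the log2 fold change between cKO and WT was 0.03 at 0 h and -0.14 at 4 h, and with the TGTA per kilobase 0.05 and -0.25, which is a description across genes that share the same 4 samples at each time. A TGTA is a match of letters and not a site of binding, and 3'UTR length was not measured here.

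Rab coverage spanned from 0 to 11170. The mean over the 8 samples was 1000 or more for 23 members, 100 to under 1000 for 12, 10 to under 100 for 10 and under 10 for 11, and Rab9b was listed at 0 in every sample. Rab9b, Rab39b and Rab3b stayed under the mean of 0.5 needed for testing, which left 54 of 57. The 5 members of highest mean coverage were Rab7 (7486), which drives fusion of late endosomes with lysosomes, Rab8b (6881), which serves delivery from the Golgi to the plasma membrane, Rab1a (5953), which acts between ER and Golgi, Rab5c (5691) of the early endosome and Rab32 (4699) of lysosome-related organelles. Rab7 had the highest coverage of the family at 0 h in both genotypes, and Rab8b did so at 4 h, having been ranked 7 in WT against 3 in cKO at 0 h. Rab5a, the classical Rab of the early endosome, had 1370 to 1819 over the 8 samples, Rab8a 953 to 1457 and Rab27a, of granule and exosome secretion, 33.3 to 133.

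**Figure D1:**
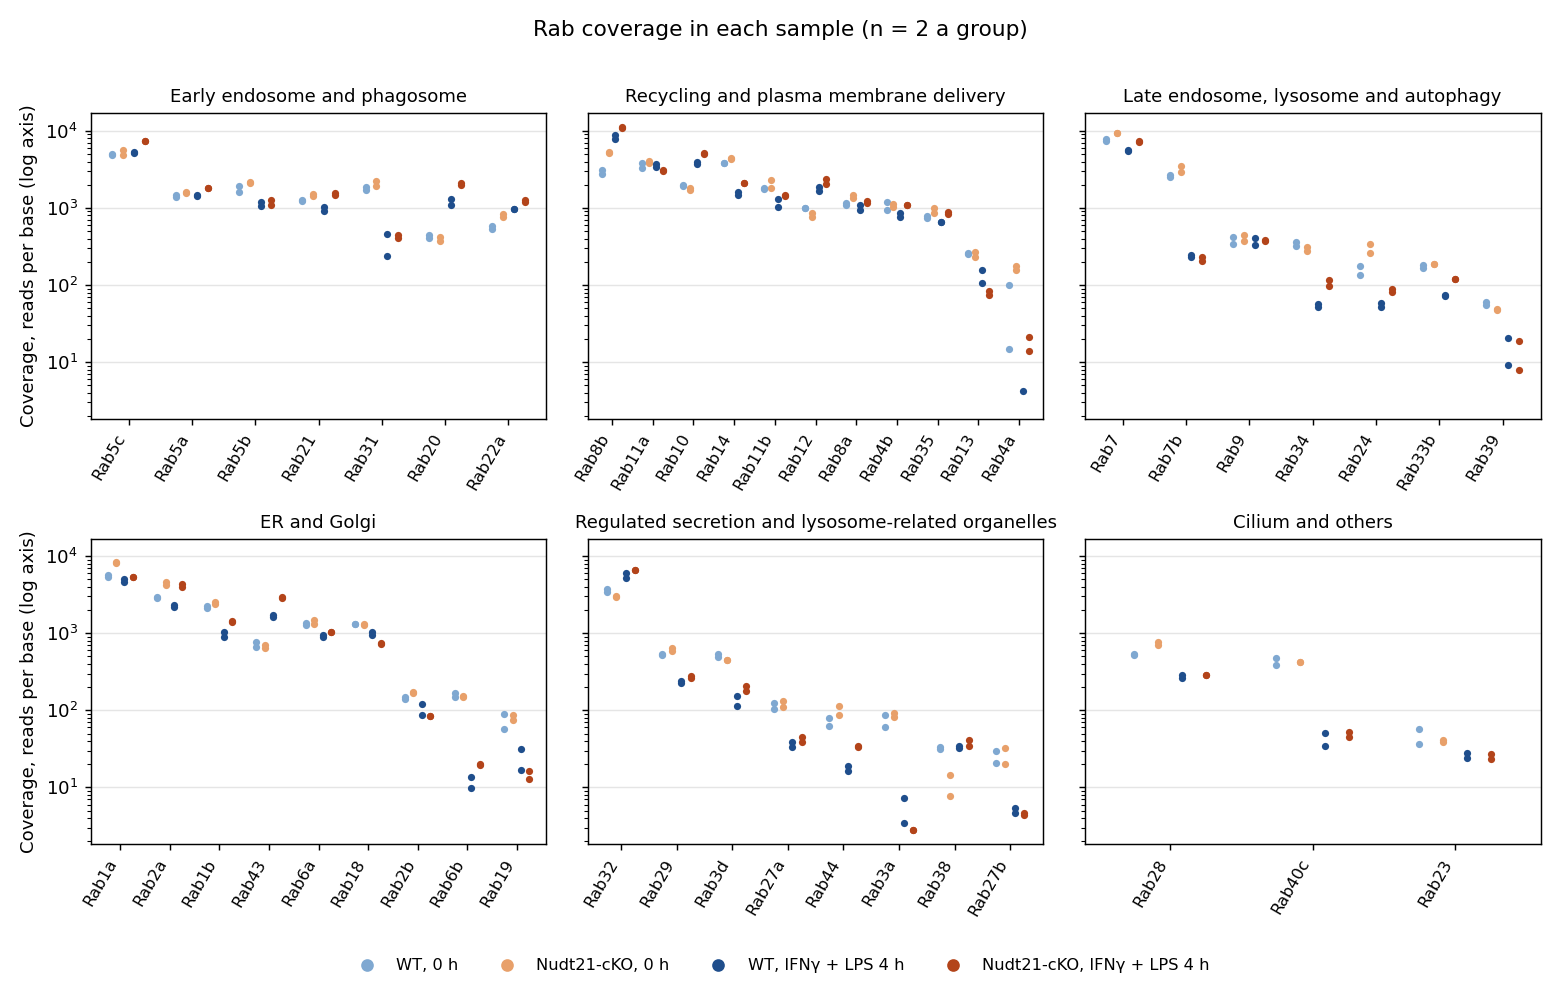
Coverage (reads per base, log axis) of the 45 Rab genes with a mean of at least 10, grouped by role and ordered by mean, with 1 point per sample and the 4 groups in colour. The value of 0 of Rab4a in 1 WT sample at 4 h cannot be drawn. Rab8b, Rab10, Rab12, Rab20, Rab32 and Rab43 lie higher at 4 h than at 0 h in every sample, and Rab7b, Rab6b, Rab40c and Rab3a lie lower.

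The make-up of the family by role can be read within each sample and so does not depend on how samples are scaled. Members for recycling and plasma membrane delivery held at most 29.9% of all Rab coverage in the samples at 0 h and 37.4% to 39.8% at 4 h. Those of the late endosome, lysosome and autophagy held 17.8% to 18.8% at 0 h and 10.8% to 11.0% at 4 h. The shares at 0 h and 4 h did not overlap in either group of members. Nor did they for ER and Golgi (23.0% to 25.7% and 19.8% to 21.1%), regulated secretion and lysosome-related organelles (5.87% to 8.20% and 9.47% to 11.2%), or cilium and others (1.53% to 1.72% and 0.467% to 0.615%). Only the shares of the early endosome and phagosome overlapped (18.2% to 19.8% and 19.2% to 21.1%). Within the recycling and delivery group Rab8b held 4.49% to 7.19% of Rab coverage at 0 h and 13.4% to 14.9% at 4 h, and the other 12 members together 22.5% to 25.4% and 22.4% to 25.1%. Among those 12 shares moved both ways, since Rab10 held 2.37% to 3.18% at 0 h and 6.44% to 6.90% at 4 h, and Rab14 5.85% to 6.12% and 2.52% to 2.81%. Most coverage of the late endosome, lysosome and autophagy group was of Rab7 and Rab7b. As deposited, Rab7 had 7398 to 9518 at 0 h and 5551 to 7325 at 4 h, and Rab7b 2492 to 3505 and 204.5 to 246.8. After centring, 2 of the 8 members tested in this group were called higher and 2 lower in WT, against 37.3% and 22.9% of all genes. In cKO it was 3 and 2, against 35.5% and 23.1%. Between genotypes, the ER and Golgi members held 23.0% in both WT samples and 25.3% and 25.7% in cKO at 0 h, and members for regulated secretion and lysosome-related organelles held 8.20% and 7.81% in WT and 6.09% and 5.87% in cKO. Early endosome and phagosome members held 19.3% and 19.8% in WT against 18.2% and 18.8% in cKO at 0 h, and 19.2% and 19.3% against 21.1% and 20.3% at 4 h. The other groups overlapped at 0 h. At 4 h ER and Golgi (20.3% and 19.8% in WT, 20.6% and 21.1% in cKO), regulated secretion (11.2% and 9.62%, 9.57% and 9.47%) and cilium and others (0.564% and 0.615%, 0.491% and 0.467%) also lay apart. A single value compared between 2 samples and 2 others by exact permutation, two-sided, reaches no p below 0.333.

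For the comparisons, limma was fitted on log2(coverage + 0.1) of the 16284 genes whose mean was 0.5 or more, after each sample was centred on its median gene, and a call is an adjusted p under 0.05 (Benjamini-Hochberg over all genes). The pseudocount of 0.1 understates the change of low genes. Centring matters here, since the median of the samples was higher in cKO by 0.09 at 0 h and by 0.36 at 4 h on the log2 scale, and fell by 1.47 with stimulation in WT and by 1.20 in cKO. Counts of members called between groups are therefore also given on the deposited scale, and calls in the same direction on all 4 scalings tried (median-centred, deposited, equal total coverage, quantile) are given on their own. As deposited, the values of the 2 groups compared did not overlap for 56.3% of all genes between genotypes at 0 h, 61.2% at 4 h, and 84.3% with stimulation in WT and 86.6% in cKO.

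The first question was which Rab genes differ between cKO and WT in unstimulated BMDMs. Rab8b was higher in cKO. Its coverage was 2795 and 3080 in WT against 5143 and 5271 in cKO, so that the groups did not overlap, with a log2 fold change of 0.73 (SE 0.10, adjusted p = 0.0257, limma). It was the only one of 54 members called higher, 1.85% of them, against 2.79% of all genes, and no member was called lower, against 2.17% of all genes (1.35% on all 4 scalings). Of the 54 members 10 (18.5%) had an unadjusted p under 0.05 by limma, in either direction, against 21.9% of all genes. The call of Rab8b held on all 4 scalings, as it did for 1.94% of all genes in that direction. It was lost in a fit on the 4 samples at 0 h alone, in which 0.688% of all genes were called higher. Leaving out any of the 4 samples at 0 h or either cKO sample at 4 h also lost the call, with log2 fold changes of 0.66 to 0.81.

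On the deposited scale 3 members were called higher (3.42% of all genes) and none lower (1.66%), since Rab1a and Rab2a joined Rab8b. Rab1a had 5665 and 5279 in WT against 8040 and 8381 in cKO, and Rab2a, which acts between Golgi and ER and in autophagosome clearance, had 2933 and 2900 in WT against 4225 and 4619 in cKO. Their adjusted p-values were 0.138 and 0.0611 after centring and 0.0436 and 0.0431 on the deposited scale. The rule in the study's methods, a fold over 1.5 with an unadjusted p under 0.05, was applied to the limma values. On centred values it picked Rab8b and Rab24 as higher (6.39% of all genes) and Rab38 as lower (6.21%), and on the deposited scale Rab1a and Rab2a as higher too (8.0%) and Rab38 as lower (4.92%). Rab24, linked to autophagy, had 175 and 134 in WT against 258 and 341 in cKO (adjusted p = 0.0668, limma), and 62.4% of its annotated exonic bases lie over Prelid1 on the other strand, which had a mean coverage of 1874. Reads of the 2 strands are not stated to have been kept apart, so the values of Rab24 are uncertain. Rab38, which serves melanosomes and other lysosome-related organelles, had 33.9 and 31.4 in WT against 14.5 and 7.68 in cKO (adjusted p = 0.0631, limma).

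After IFNγ/LPS, Rab2a was higher in cKO and 4 members were lower. Rab2a had 2197 and 2352 in WT against 4017 and 4302 in cKO, with a log2 fold change of 0.51 (SE 0.10, adjusted p = 0.0318, limma). Rab18, which sits on ER and lipid droplets, had 939 and 1037 in WT against 747 and 715 in cKO, with a log2 fold change of -0.79 (SE 0.09, adjusted p = 0.0101). In coverage as deposited the groups did not overlap for either. Calls of Rab2a as higher and of Rab18 as lower held on all 4 scalings, as did 5.77% and 3.22% of all genes in those directions. The call of Rab18 was lost without cKO replicate 4 at 4 h (adjusted p = 0.0633, log2 fold change -0.78). That of Rab2a was lost in 7 of the 8 fits that leave out 1 sample (all but the one without WT replicate 1 at 4 h), with adjusted p-values of 0.0585 to 0.152 and log2 fold changes of 0.44 to 0.58.

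The other 3 calls at 4 h depended on scale. Rab13, a member for delivery to cell junctions, had 106 and 159 in WT against 84.7 and 74.6 in cKO, with a log2 fold change of -1.07 (SE 0.15, adjusted p = 0.0152, limma). Rab2b, the close relative of Rab2a, had 87.7 and 122 in WT against 83.5 and 84.1 in cKO, with a log2 fold change of -0.66 (SE 0.12, adjusted p = 0.0286). Rab11a, the main Rab of recycling endosomes, had 3403 and 3684 in WT against 2996 and 3115 in cKO, with a log2 fold change of -0.57 (SE 0.11, adjusted p = 0.0337). In each of the 3 both cKO values lay below both WT values, by a narrow margin in Rab2b. On the deposited scale their log2 fold changes were -0.71, -0.30 and -0.21, with adjusted p-values of 0.0790, 0.276 and 0.258. Rab13 was not called without cKO replicate 3 or 4 at 4 h (adjusted p 0.0561 and 0.0856), and Rab2b and Rab11a were not called in 7 (all but without WT replicate 1 at 4 h) and 6 (all but without a WT sample at 0 h) of the 8 fits that leave out 1 sample, with adjusted p-values up to 0.122 and 0.138. Exons of Rab2b lie for 59.3% of their length over Gm43766 and for 4.7% over Tox4, both on the other strand.

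Fits on the 4 samples at 4 h alone made none of these calls, and called 0.798% of all genes higher and 0.356% lower. In all, 1 of 54 members was called higher at 4 h against 7.2% of all genes, and 4 (7.41%) lower against 8.71%. On the deposited scale the split turned to 14 higher (25.9%) against 19.6% of all genes, and 1 lower, Rab18, against 3.38%. The 14 were Rab2a with Rab5c, Rab20 and Rab21 of the early endosome and phagosome, Rab8b, Rab10 and Rab14 of recycling and delivery, Rab7, Rab33b and Rab34 of the late endosome and autophagy, Rab1b, Rab6b and Rab43 of the Golgi, and Rab44. Rab20, a regulator of phagosome maturation, had 1323 and 1078 in WT against 2133 and 1980 in cKO. Rab33b, which meets Atg16l1 in autophagosome formation, had 75.2 and 71.8 in WT against 119 and 121 in cKO, and Rab34, which positions lysosomes, had 56.3 and 51.9 in WT against 118 and 96.9 in cKO. The groups did not overlap in these. After centring Rab2a alone of the 14 was called, and the smallest adjusted p of the others was 0.0615, of Rab34 (limma). On centred values the rule of the study's methods picked Rab34 as higher (9.88% of all genes) and Rab2b, Rab3a, Rab13, Rab18 and Rab19 as lower (10.6%). With deposited values the split turned, with 10 higher (Rab2a, Rab6b, Rab15, Rab20, Rab21, Rab24, Rab33b, Rab34, Rab43 and Rab44; 20.7% of all genes) and Rab13 lower (4.39%). Centring moves all genes of a comparison by the same amount, and members within that shift of 0 turn sign with it. At 4 h these were 17 of 54 members (31.5%) against 22.8% of all genes, and at 0 h 6 of 54 (11.1%) against 9.16%. The median log2 fold change of the 54 members at 4 h was -0.11 centred and 0.25 deposited, beside -0.08 and 0.28 over all genes tested.

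**Figure D2:**
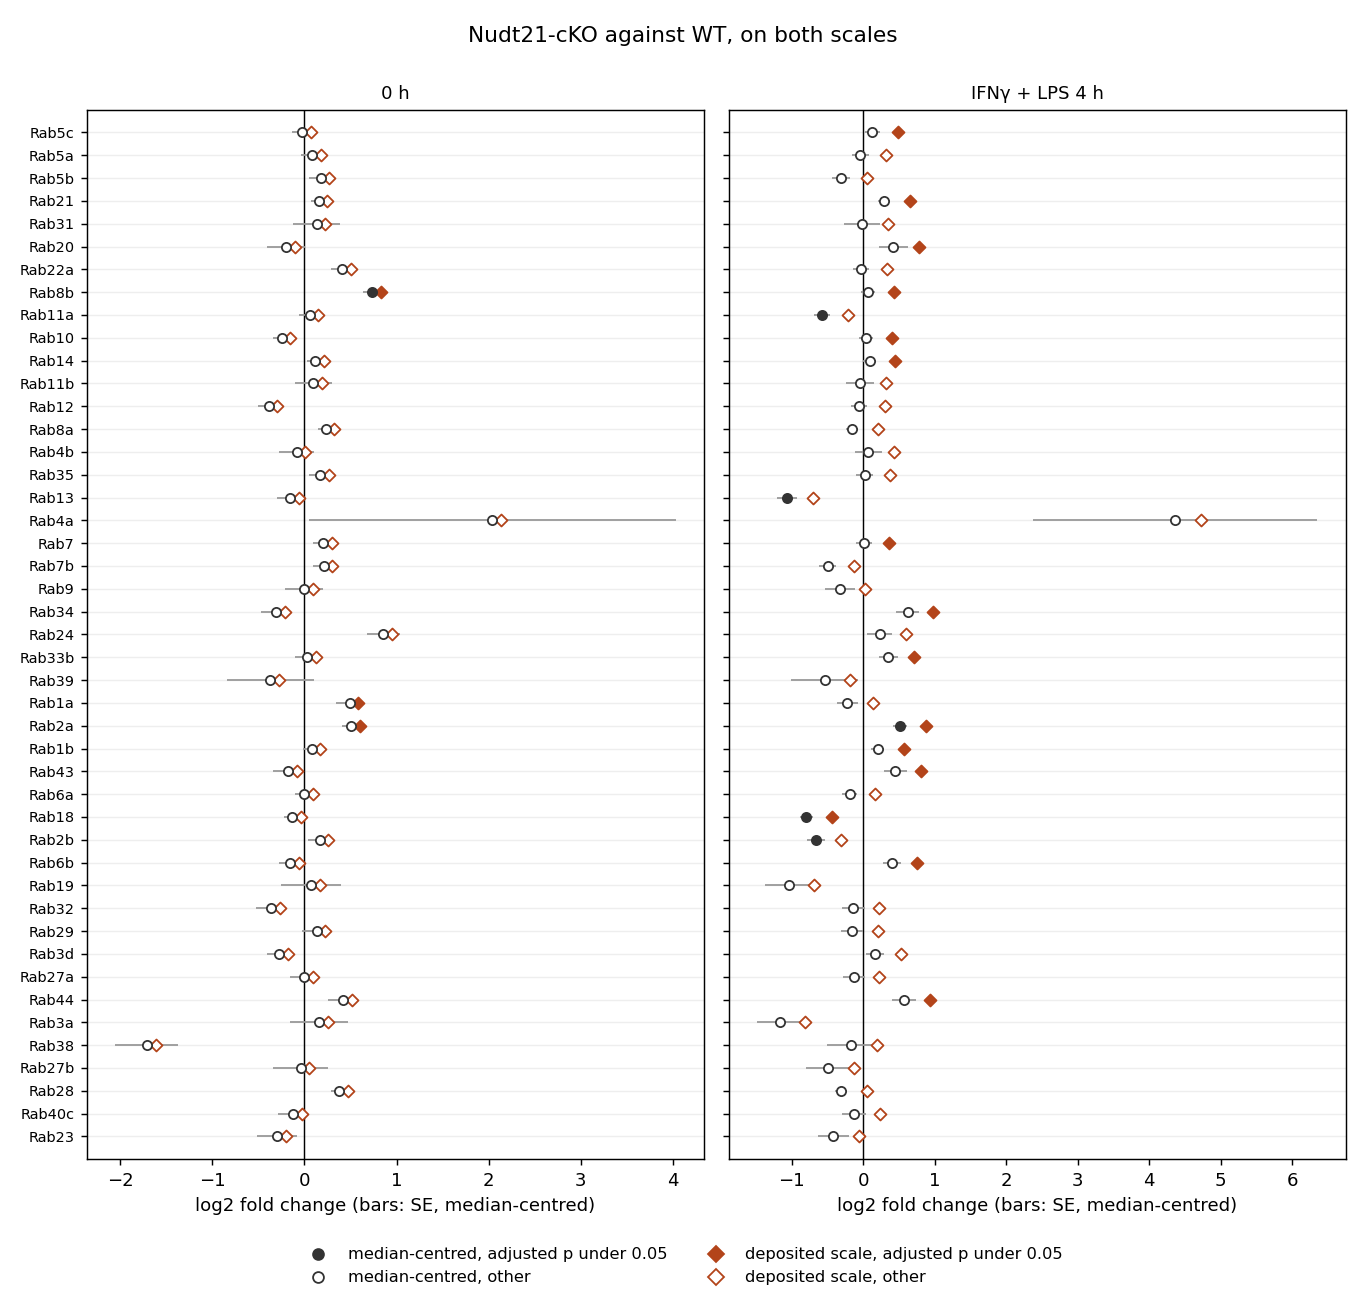
Log2 fold change of Nudt21-cKO against WT at 0 h (left) and after IFNγ/LPS for 4 h (right) for the 45 Rab genes whose mean coverage was 10 or more, in order of role. Circles are median-centred values with SE bars, diamonds are the deposited scale, and filled symbols have an adjusted p under 0.05 (limma). At 0 h Rab8b is filled on both scales, and at 4 h Rab2a on the right and Rab18 on the left of 0 are. Rab4a, with values of 99.0 and 14.6 in WT at 0 h and of 4.20 and 0 in WT at 4 h, has wide bars.

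Ratios between 2 members within a sample leave out the scaling altogether, and a few are given here as descriptions, chosen after their values were seen. The coverage of Rab2a was 21.2 and 19.7 times that of Rab2b in WT and 24.4 and 27.5 times in cKO at 0 h. At 4 h it was 25.1 and 19.2 times in WT against 48.1 and 51.1 times in cKO, so stimulated cKO samples lay apart from the other groups. Rab2a against Rab18 was 2.34 and 2.27 in WT against 5.38 and 6.02 in cKO at 4 h. Rab8b against its relative Rab8a was 2.55 and 2.67 in WT against 3.78 and 3.62 in cKO at 0 h, and 8.19 and 7.97 in WT against 9.20 and 9.59 in cKO at 4 h, which is higher in cKO at each time and higher with stimulation in each genotype. Rab11a against Rab11b was 2.63 and 3.54 in WT against 2.05 and 2.18 in cKO at 4 h, with overlap between genotypes at 0 h. Rab1a against Rab1b turned around, from 2.66 and 2.34 in WT below 3.38 and 3.27 in cKO at 0 h to 5.74 and 4.45 in WT above 3.83 and 3.69 in cKO at 4 h. Processed pseudogenes close to Rab2a (Gm5865), Rab8b (Gm20689) and Rab11b (Rab11b-ps2), and to Rab5b (Gm13991), Rab6a (Gm13082), Rab7 (Rab7-ps1) and Rab9 (Rab9b-ps1), exist, and how reads were shared with them is not stated in the sources used here.

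**Figure D3:**
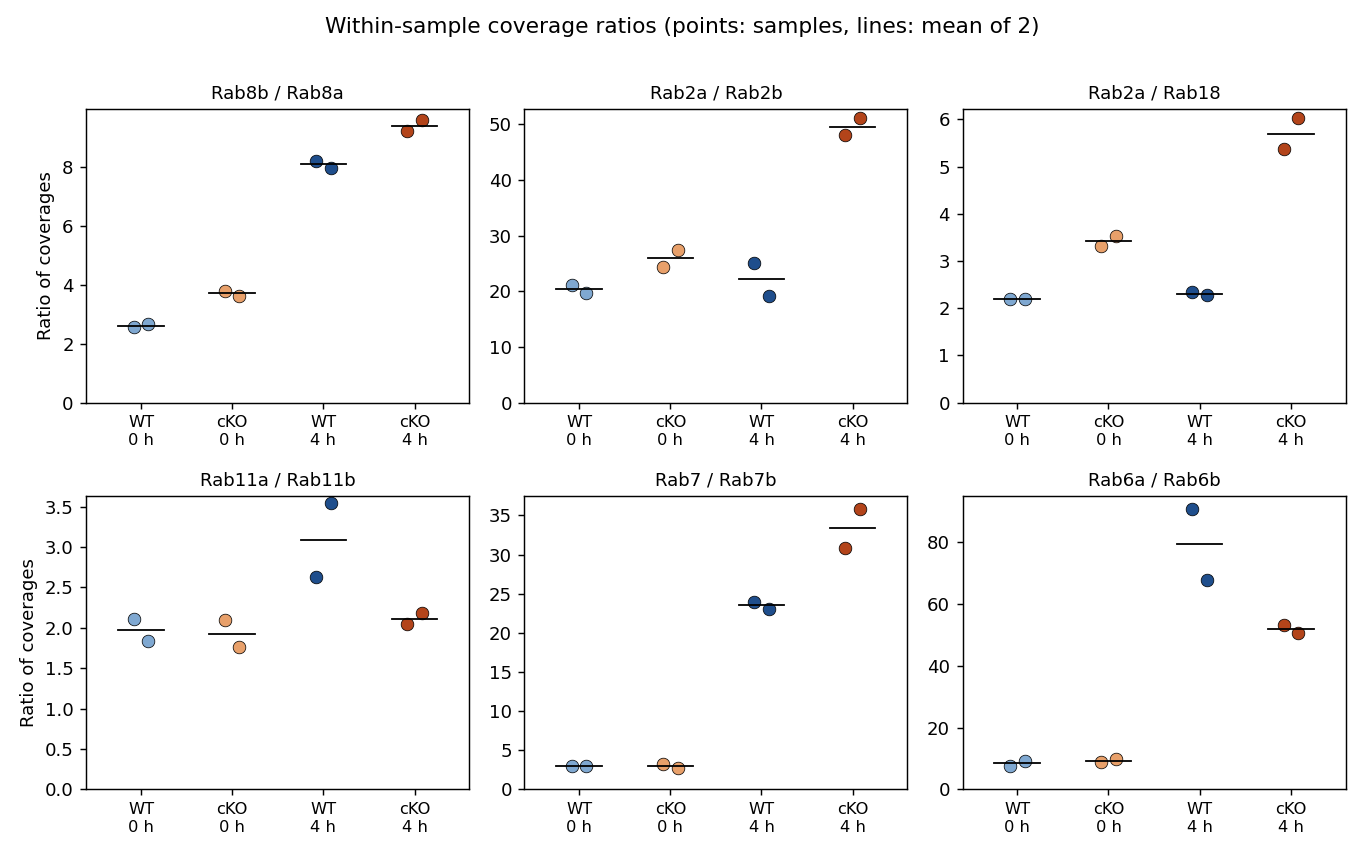
Within-sample ratios of coverage for 6 pairs of Rab genes, with 1 point per sample, a line at the mean of the 2 samples of each group, and axes that start at 0. In the panels of Rab2a against Rab2b and against Rab18, cKO at 4 h stands above the other groups, and in those of Rab7 against Rab7b and Rab6a against Rab6b the stimulated samples stand above the unstimulated ones.

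Stimulation moved more members than the genotype did. In WT, Rab8b, Rab20, Rab43, Rab10, Rab12, Rab22a and Rab32 rose and Rab3a, Rab6b, Rab7b, Rab40c, Rab34, Rab31 and Rab3d fell on all 4 scalings, which is 7 of 54 members in each direction, against 12.6% of all genes higher and 21.5% lower. The rises lie among members of recycling and delivery (3 of 13), the early endosome and phagosome (2 of 7), the Golgi and lysosome-related organelles (1 each). After centring 26 members were called higher in WT (48.1%) against 37.3% of all genes, and 9 lower (16.7%) against 22.9%. On the deposited scale it was 7 higher against 12.9% and 32 lower (59.3%) against 58.2%, and the sign was opposite on the 2 scales for 23 of 54 members (42.6%) against 32.8% of all genes. The 14 named above were called in the same direction on both.

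Rab8b went from 2795 and 3080 at 0 h to 7808 and 8755 at 4 h in WT, a log2 fold change of 2.96 centred (SE 0.10, adjusted p = 2.88e-05, limma) and 1.49 deposited. Rab20 went from 441 and 413 to 1323 and 1078, 2.95 centred (SE 0.21) and 1.48 deposited. Rab43, a Golgi member, went from 654 and 768 to 1703 and 1633, 2.70 centred (SE 0.16) and 1.23 deposited. For each of these the WT samples at 4 h lay above both at 0 h in coverage as deposited. Exons of Rab43 overlap Gm45140 on the same strand for 75.4% of their length and those of Rab20 overlap E230013L22Rik on the other strand for 25.6%, so reads could be split or shared there. Rab10, which brings TLR4 to the macrophage surface, went from 1979 and 1938 to 3742 and 3979, Rab12 from 990 and 1000 to 1649 and 1892, Rab22a from 541 and 588 to 967 and 979, and Rab32 from 3775 and 3440 to 6031 and 5232. Their log2 fold changes were 2.11 to 2.45 centred, 0.64 to 0.98 deposited, 0.69 to 1.03 with equal total coverage and 0.42 to 1.37 with quantile normalization.

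Rab3a, Rab6b, Rab7b and Rab40c fell most in WT among members called on all scalings. Rab3a, known from regulated exocytosis in neurons, went from 87.4 and 60.2 to 3.44 and 7.19, a log2 fold change of -2.37 centred (SE 0.31, adjusted p = 0.00189, limma) and -3.84 deposited. Rab6b went from 167 and 149 to 9.84 and 13.8, -2.28 centred (SE 0.13) and -3.75 deposited. Rab7b, which carries cargo from late endosomes to the Golgi and restrains Toll-like receptor signalling, went from 2492 and 2682 to 231 and 247, -1.97 centred (SE 0.12) and -3.44 deposited. Rab40c, part of a ubiquitin ligase, went from 475 and 391 to 34.2 and 50.6, -1.90 centred. Rab34 went from 360 and 325 to 56.3 and 51.9, -1.19 centred. Rab31, a relative of Rab22a, went from 1688 and 1884 to 238 and 465, and Rab3d from 489 and 533 to 114 and 155. The calls of Rab31 (adjusted p 0.0640 and 0.1001) and Rab3d (0.102 and 0.0858) were each lost in 2 of the 8 fits that leave out 1 sample, Rab31 without WT replicate 1 or 2 at 0 h and Rab3d without WT replicate 2 at 0 h or replicate 1 at 4 h. Rab40b, also called lower in WT after centring, was listed at 0 in all 4 stimulated samples and did not pass 2.01 at 0 h.

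Some close relatives differed more in level at 4 h than at 0 h or changed order, and 4 pairs are given, chosen after their values were seen. Others did not part in both genotypes, since the ratios of Rab2a to Rab2b and of Rab5c to Rab5a overlapped between the times in WT and that of Rab11a to Rab11b in cKO. Rab7 was 2.97 and 2.96 times Rab7b in WT at 0 h and 24.0 and 23.0 times at 4 h, and in cKO 3.22 and 2.72 times at 0 h and 30.9 and 35.8 times at 4 h. Rab6a was 7.66 and 9.18 times Rab6b in WT at 0 h and 90.6 and 67.8 times at 4 h, and in cKO 8.92 and 9.69 times at 0 h and 53.3 and 50.4 times at 4 h. Rab22a was 0.321 and 0.312 times Rab31 in WT at 0 h, below 0.394 and 0.373 times in cKO. At 4 h it was above Rab31 in each sample, at 4.06 and 2.1 times in WT and 2.86 and 2.93 times in cKO, which reverses their order and overlaps between genotypes at that time. Rab5a moved past Rab5b in the same way, from 0.704 to 0.904 times at 0 h to 1.20 to 1.64 times at 4 h. Rab7, Rab6a and Rab5b are among the members with a processed pseudogene, named above.

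In cKO the same 7 members rose on all 4 scalings, and Rab38 with them, 8 of 54 (14.8%) against 13.9% of all genes. Rab38 went from 14.5 and 7.68 to 41.8 and 34.7, a log2 fold change of 3.04 centred (SE 0.34, adjusted p = 0.00121, limma) and 1.84 deposited, and in WT from 33.9 and 31.4 to 32.3 and 34.4, which is 1.498 centred (adjusted p = 0.0141) and 0.03 deposited (adjusted p = 0.945). Its interaction was not called on either of these scales. Falls on all 4 scalings were 9 of 54 (16.7%) against 21.8% of all genes: Rab3a, Rab6b, Rab7b, Rab40c and Rab31 as in WT, and Rab13, Rab19, Rab24 and Rab27b. Leaving out 1 sample lost the calls of Rab31 and Rab19 (any cKO sample), Rab27b (cKO replicate 4 at 0 h or either cKO sample at 4 h), Rab13 (any sample at 0 h or either cKO sample at 4 h) and Rab24 (cKO replicate 4 at 0 h or any sample at 4 h), and their largest adjusted p was 0.187, for Rab13 without cKO replicate 4 at 4 h. After centring 24 members were called higher (44.4%) against 35.5% and 9 lower (16.7%) against 23.1%, and on the deposited scale 9 higher (16.7%) against 14.5% and 30 lower (55.6%) against 54.5%. The sign was opposite on the 2 scales for 18 of 54 (33.3%) against 29.6% of all genes.

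**Figure D4:**
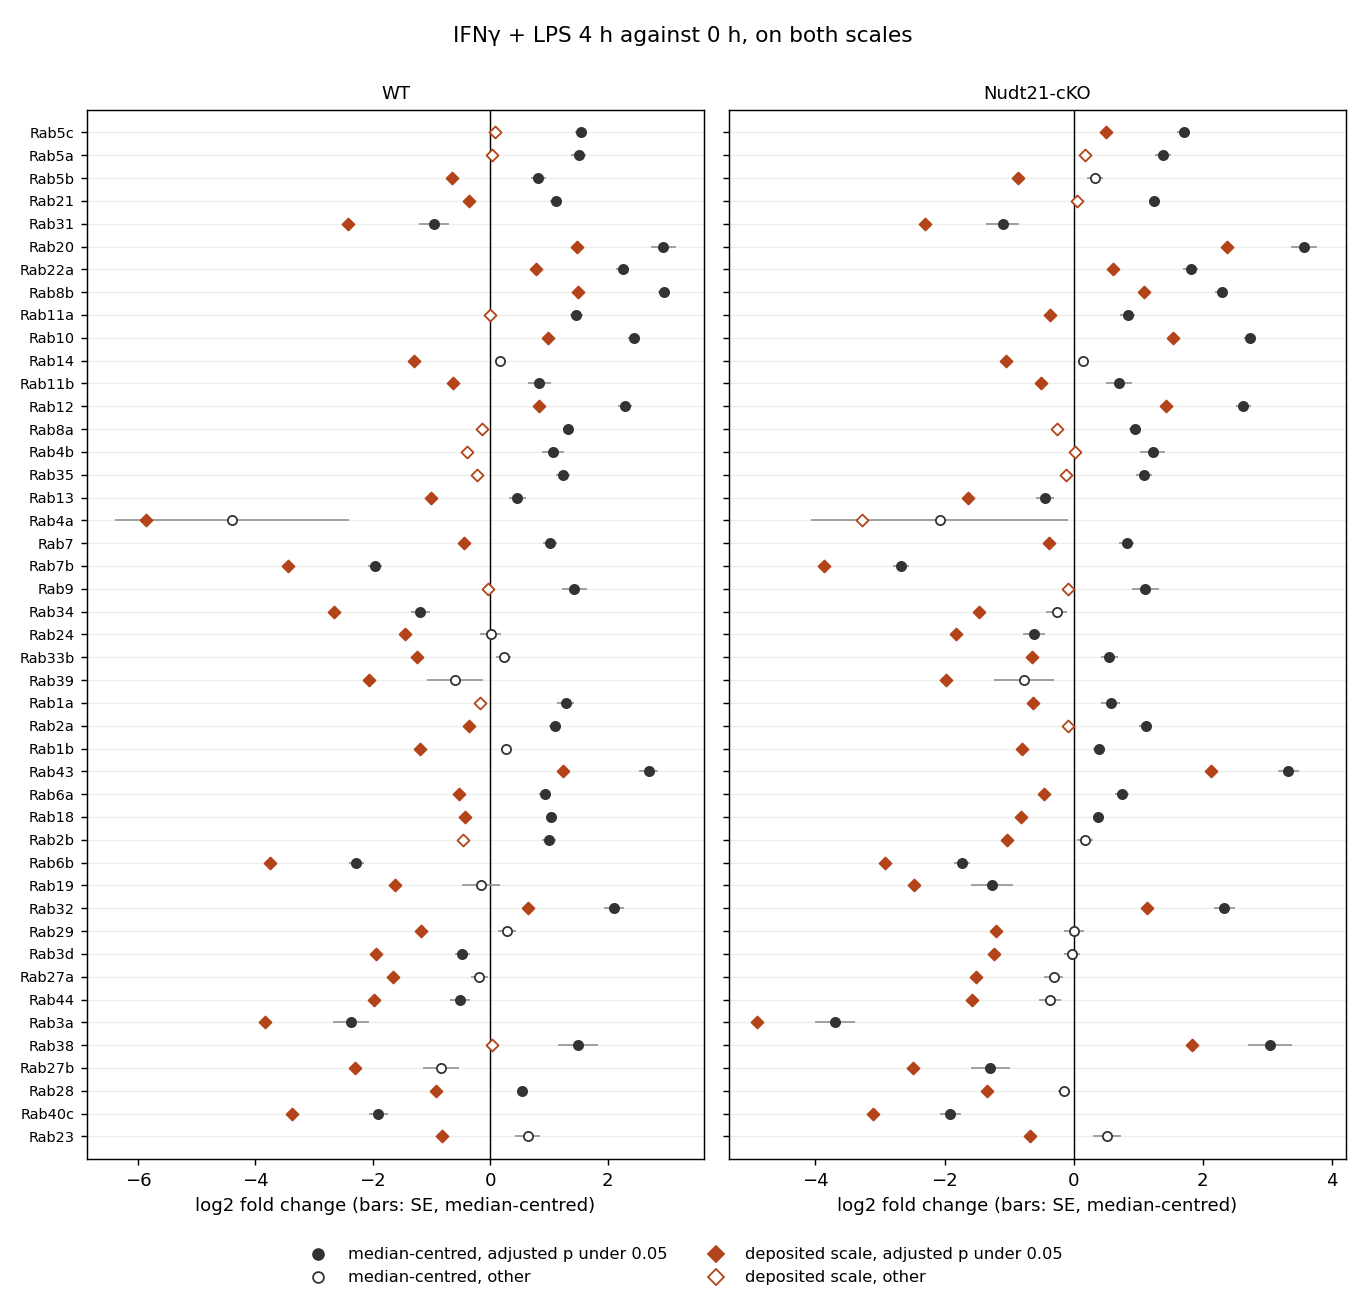
Log2 fold change of IFNγ/LPS for 4 h against 0 h in WT (left) and Nudt21-cKO (right) for the 45 Rab genes whose mean coverage was 10 or more, with symbols as in the plot of genotype differences. The diamonds of the deposited scale lie to the left of the circles by the shift of the median gene, 1.47 in WT against 1.20 in cKO. Rab8b, Rab10, Rab12, Rab20, Rab22a, Rab32 and Rab43 lie to the right of 0 on both scales in both panels, and Rab3a, Rab6b, Rab7b and Rab40c to the left.

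Whether stimulation acted differently in cKO was tested as the interaction, the genotype effect at 4 h minus that at 0 h. No member was called after centring (1.07% of all genes higher, 1.06% lower) or on the deposited scale (2.28% and 0.761%), and 16 of 54 (29.6%) had an unadjusted p under 0.05 by limma on each scale, against 21.6% of all genes centred and 22.1% deposited. After centring the smallest adjusted p was 0.0696, of Rab28, a ciliary member, and that of Rab18 was 0.0729, of Rab8b 0.0882, of Rab2b 0.0906, of Rab38 0.163 and of Rab2a 0.985. The smallest on the deposited scale was 0.053, of Rab34. On centred values the rule of the study's methods picked 3 members higher (Rab34, Rab38, Rab43; 7.47% of all genes) and 9 lower (Rab1a, Rab2b, Rab3a, Rab7b, Rab8b, Rab11a, Rab13, Rab18, Rab28; 8.85%), and on the deposited scale 8 higher (Rab3d, Rab6b, Rab12, Rab20, Rab33b, Rab34, Rab38 and Rab43; 13.5%) and none lower (4.05%). Some other settings did call members in the interaction. Rab18 and Rab28 were called lower with a minimum coverage of 5 (2.27% of all genes) and with unmoderated variances (1.47%). With an intensity trend these were joined by Rab2b, Rab7b, Rab8b, Rab11a and Rab13 (4.4%), and Rab34 was called higher (2.7%). In the fit reported, a genotype difference called at 1 time and not at the other is not shown to differ between the times.

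The proteins that switch and read Rabs were listed as 128 genes, of which 122 were tested. At 4 h 10 of 122 (8.2%) were called higher in cKO against 7.2% of all genes, and 13 (10.7%) lower against 8.71%, and by class it was 2 higher and 7 lower among 41 exchange factors, 6 and 2 among 34 GTPase-activating proteins, 2 and 3 among 40 effectors, and 0 and 1 (Gdi2) among 7 prenylation and GDI genes. As deposited, 32 were called higher (26.2%) against 19.6% of all genes and 3 lower (2.46%) against 3.38%. On all 4 scalings 8 were higher (6.56%) against 5.77% and 3 lower (2.46%) against 3.22%, and those 3 were the largest falls among the regulators called. Rabgap1l, a GTPase-activating protein, had 118 and 121 in WT against 64.0 and 62.7 in cKO, a log2 fold change of -1.27 (SE 0.10, adjusted p = 0.00568, limma), called in each of the 8 fits that leave out 1 sample. Rin2, a Rab5 exchange factor, had 2480 and 2889 in WT against 1565 and 1297 in cKO, -1.27 (adjusted p = 0.0132). Bicd2, a Rab6 effector that links to dynein, had 255 and 265 in WT against 173 and 167 in cKO, -0.97 (adjusted p = 0.00882). Without cKO replicate 4 at 4 h the adjusted p was 0.0741 for Rin2 and 0.0558 for Bicd2.

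The largest rises at 4 h among the regulators called were Trappc5, a subunit of the TRAPP exchange complexes, with 28.8 and 35.7 in WT against 79.9 and 120 in cKO (log2 fold change 1.25, adjusted p = 0.0299, limma), Rab11fip1, a Rab11 effector, with 4131 and 4059 in WT against 9085 and 10060 in cKO (0.86, adjusted p = 0.0263), and Rabgef1, a Rab5 exchange factor also named Rabex-5, with 1098 and 1119 in WT against 2441 and 2721 in cKO (0.86, adjusted p = 0.0191). The groups did not overlap in any of the 6, beside 61.2% of all genes. The 3 rises were not called in 7, 5 and 4 of the 8 fits that leave out 1 sample, with adjusted p-values up to 0.0908, 0.128 and 0.0999, each in fits that drop a cKO sample or, for Trappc5 and Rab11fip1, a WT sample. At 0 h Rabgap1l, Bicd2 and Tbc1d8 were called lower in cKO (2.46%, against 2.17% of all genes) and none higher, with log2 fold changes of -0.67, -0.69 and -0.75 and adjusted p-values of 0.0364, 0.0295 and 0.0333. Tbc1d8 was not called on the deposited scale (adjusted p = 0.103) or with equal total coverage (0.0951), the calls of the other two held on all 4 scalings, and on the deposited scale 4 regulators (Appl1, Eea1, Rabgef1 and Tbc1d20) were called higher (3.28%, against 3.42% of all genes). Each of the 3 falls was lost without any of the samples at 0 h or without either cKO sample at 4 h, with adjusted p-values up to 0.183, 0.155 and 0.169. Tbc1d8, a GTPase-activating protein, was the only regulator called in the interaction after centring (1.07% of all genes higher), at 1.28 (SE 0.16, adjusted p = 0.0319), not called with equal total coverage (adjusted p = 0.0655), joined by Tbc1d16 on the deposited scale (adjusted p = 0.0445, 2.28% of all genes), and lost in the same 6 fits that leave out 1 sample, with adjusted p-values up to 0.119. With stimulation in WT 11 of 122 regulators (9.02%) rose on all 4 scalings against 12.6% of all genes, and 40 (32.8%) fell against 21.5%. In cKO 10 (8.2%) rose against 13.9%, and 45 (36.9%) fell against 21.8%.

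Promoters were looked at for letters that IFNγ and LPS signalling is known to use. Of the 57 members 46 had a promoter in the RefSeq table on GRCm38.p6 (250 bases before to 50 after the start). GAAA, any 2 bases and GAAA again, a core of the ISRE, was found on either strand in Rab19 and in 3.4% of all 32851 promoters, TGANTCA of AP-1 in Rab15, Rab34 and Rab39b and in 7.8%, and the NF-kB motif in Rab15 and Rab28 and in 4.5%. Rab7b had no promoter in the table. None of the 7 members that rose on all scalings in both genotypes had a match in this window. A member without a listed promoter could have none, and at the shares of all promoters given above an absence among 7 says little. The ISRE matches of Rab19, which fell on all scalings in cKO, are not printed. Rab34, which fell in WT, had 1 match, shown here because it was the only member that moved on all scalings in WT and held any. Its AP-1 letters stand at chr11:78188358-78188387, plus strand, with the motif in capitals.
Rab34 AP-1: ggcagactctaTGAGTCAtgtgccaggcct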

How the data were processed

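RNA-seq of 8 BMDM samples was used, mapped to groups by their titles. The authors aligned reads to GRCm38 with HISAT2 2.2.1 and quantified RefSeq genes with StringTie 2.1.7, as their processing notes and methods state, and deposited 1 coverage signal per gene symbol and sample in 2 tables, 1 a time. Their unit is not named and was read from the values, and no scaling was found. They also hold the authors' log2 fold changes, p-values and FDR, which were not used. Columns of samples that were set aside number 0. The library kit is not stated to keep strand, so antisense and overlapping genes cannot be told apart.

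Coverage is not a count, so limma 3.58.1 (R 4.3.3) was fitted on log2(coverage + 0.1) with 4 group means over all 8 samples, samples median-centred, for genes with a mean of at least 0.5. The script was tested on simulated data. P-values measure the spread between pooled samples, 2 a group, which may be in part technical. The study's own scale, the deposited one, and the rule of its methods, run on centred and on deposited values, are alternatives, with equal total coverage, quantile normalization, a pseudocount of 1, no filter, a filter of 5, other variance estimates, fits on 4 samples, a replicate block and each sample left out.

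The members and gene lists were chosen with earlier results of these data known. Members named are those called between genotypes, the 6 largest rises and falls of called members with stimulation in WT, the 5 of highest coverage, a fixed list (Rab5a, Rab7, Rab11a, Rab1a, Rab8a, Rab20, Rab24, Rab27a, Rab32, Rab33b, Rab38) and the 3 largest called rises and falls among regulators at 4 h. Others named in the text were chosen after their values were seen, and relatives were paired by symbol since protein sequences were not used here. Genes, 3'UTRs and overlaps came from GENCODE M21 on GRCm38, in which all 57 members matched, copies from blastn 2.17.0 (at least 95% identity over 200 bases) and promoters from RefSeq. Some planned results are not reported here.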

Additional observations from a re-analysis of the deposited data

How the results depend on the processing

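Counts below are of 54 Rab genes and 122 regulators tested, higher then lower, and the cause of each change was not tested unless named. Calls between genotypes and in the interaction changed with many settings. With only the 4 samples compared in a fit, in which fewer samples estimate the spread, 0 Rab genes and 0 regulators were called at 0 h or at 4 h, against 1 and 0 Rab genes at 0 h and 1 and 4 at 4 h in the fit reported (0 and 3, then 10 and 13 regulators). Of all genes, the fits on 4 samples called 0.688% higher and 0.313% lower at 0 h, and 0.798% and 0.356% at 4 h. In the fit reported these shares were 2.79% and 2.17%, and 7.2% and 8.71%. With each sample left out in turn, 1 group keeps 1 sample. The Rab genes and regulators called between genotypes changed in these fits, and the calls over all genes changed with them. So did the Rab genes called lower with stimulation in cKO, and the Rab genes and regulators called higher in the interaction.

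On the deposited scale 3 Rab genes and 4 regulators were called higher at 0 h, 14 and 1 Rab genes and 32 and 3 regulators at 4 h, 7 and 32 Rab genes and 11 and 98 regulators with stimulation in WT, 9 and 30 and 11 and 94 in cKO, and 2 regulators higher in the interaction. With equal total coverage it was 1 regulator higher at 0 h, 4 and 1 Rab genes and 5 regulators lower at 4 h, 7 and 30 Rab genes and 11 and 97 regulators with stimulation in WT, and 9 and 30 and 10 and 95 in cKO. Of all genes, it was 2.36% higher at 0 h, 9.22% and 4.42% at 4 h, 13.3% and 56.9% with stimulation in WT, and 14.2% and 55.3% in cKO. With quantile normalization it was 6 Rab genes and 6 regulators higher at 0 h, 7 regulators lower at 4 h, 12 and 15 Rab genes and 21 regulators higher in WT, and 10 and 21 and 18 regulators higher in cKO. For all genes, 24.1% were higher and 33.0% lower with stimulation in WT, and 23.0% and 33.4% in cKO. The directions of stimulation named in the report as held on all 4 scalings are those that these settings share. Counts over all genes moved with them, and with quantile normalization 4.59% of all genes were higher at 0 h (2.79% in the fit reported) and 6.34% lower at 4 h (8.71%).

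A minimum mean coverage of 5 gave 4 and 1 Rab genes and 5 regulators higher at 0 h, 4 and 7 Rab genes at 4 h, and 2 Rab genes and 2 regulators lower in the interaction. No filter gave 1 regulator lower at 0 h, and 0 and 2 Rab genes and 5 and 6 regulators at 4 h. An intensity trend gave 6 and 2 Rab genes and 8 regulators higher at 0 h, 4 Rab genes higher at 4 h, and 1 and 7 Rab genes and 6 regulators lower in the interaction. Unmoderated variances gave 3 Rab genes and 3 regulators higher at 0 h, 2 Rab genes higher at 4 h, and 2 Rab genes and 1 regulator lower in the interaction. A pseudocount of 1 gave 1 Rab gene lower and 1 regulator higher at 0 h, and it turned Rab40b, which is listed at 0 after stimulation, to 0.21 in WT and 0.23 in cKO. Of all genes, a minimum of 5 called 5.09% higher and 4.39% lower at 0 h, 12.7% and 15.5% at 4 h and 2.26% and 2.27% in the interaction, no filter 1.92% and 1.35%, 4.29% and 3.9%, and 0.941% and 0.86%, the intensity trend 5.68% and 4.8%, 10.6% and 13.4%, and 2.7% and 4.4%, unmoderated variances 2.62% and 2.0%, 6.45% and 8.57%, and 0.97% and 1.47%, and a pseudocount of 1 3.62% and 2.84% at 0 h. The study's rule on centred values gave 2 and 1 Rab genes and 2 and 5 regulators at 0 h, and 3 and 9 Rab genes and 6 and 11 regulators in the interaction. On the deposited scale, added after the data were seen, it gave 4 and 1 Rab genes and 6 regulators higher at 0 h. At 4 h it gave 10 and 1 Rab genes and 30 and 3 regulators. With stimulation it gave 7 and 28 Rab genes and 10 and 94 regulators in WT, and 8 and 26 and 7 and 87 in cKO. Among all 16284 genes it picked 1956 and 9121 with stimulation in WT, and 2196 and 8458 in cKO. In the interaction it gave 8 Rab genes higher and 20 and 2 regulators.

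Replicate numbers recur at both times within a genotype, but samples of the same number deviated together with a correlation of 0.020 in WT and 0.024 in cKO, so the data do not show them to pair, and whether they come from the same mice is not stated in the sources used here. With the replicate block the interaction gave 0 regulators higher. This block called 0 of 16284 genes there in either direction, so the 0 is not particular to the regulators. The block on the deposited scale, a setting added after the data were seen, gave 0 regulators higher in the interaction too. It called 15 of all genes higher and 16 lower there. With stimulation it gave 7 and 28 Rab genes and 11 and 96 regulators in WT, and 9 and 28 and 9 and 93 in cKO. All genes called were then 1962 and 8991 in WT, and 2227 and 8316 in cKO. The tables hold no reads per gene, so the counting error of low genes is unknown.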

Other observations

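The Arf branch of the small GTPases was counted in the same fits. In this branch, whose members recruit coats to Golgi and endosomal membranes, 1 of 24 genes tested was called higher in cKO at 4 h after centring, against 7.2% of all genes, and 4 lower, against 8.71%. It was the reverse on the deposited scale, 4 higher against 19.6% and 1 lower against 3.38%, and on all 4 scalings 1 each, against 5.77% and 3.22%. With stimulation in WT 5 of 24 Arf branch genes rose on all 4 scalings and 4 fell, against 12.6% and 21.5% of all genes and beside 7 and 7 of 54 Rab genes. This branch was not compared with the Rab genes by a test.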
